A study of Mus musculus with 10 samples.

Results

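Single-exon full splice matches are long-read isoforms of 1 exon that were assigned to an annotated transcript that also has 1 exon. They were taken as the rows of both deposited isoform tables with the category full-splice_match and 1 exon. There were 255 of 8289 isoforms in the CD4SP library and 271 of 9476 in the CD8SP library, or 526 of 17765 in all. With no intron, the rule asks for no shared splice junction, so a match says only that the isoform overlaps the transcript on the same strand.

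The study compared splicing between mature thymocytes of the CD4 and CD8 lineages. Thymi came from C57BL/6 mice of 6 to 8 weeks, and 2 or 3 thymi were pooled per sample. CD4SP cells were sorted as CD4+ CD8- TCRβ+ CD24- after bead depletion of CD8-expressing cells, and CD8SP cells as CD8+ CD4- TCRβ+ CD24- after depletion of CD4-expressing cells. Each lineage had 1 PacBio Iso-Seq library and Illumina reads from 4 lanes, which the authors combined into 1 assembled transcript file per lineage. With 1 library per lineage there is no replicate, so the intervals and tests below cover counting error only and compare libraries, not mice. They treat isoforms as independent, although a gene can have several and many transcripts were matched in both libraries.

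Most mammalian genes have introns, but some, such as those for JUN family factors, many G protein-coupled receptors and small GTPases, are transcribed as 1 exon. An annotation also holds single-exon transcripts of other kinds: retained-intron models, which are fragments that read through an intron of a spliced gene; TEC models, which GENCODE sets aside for experimental testing; processed pseudogenes, which are reverse-transcribed copies of mRNAs in the genome; and long noncoding RNAs. An mRNA normally ends shortly after a poly(A) signal, AATAAA or a variant, and a genomic stretch of A after a read's 3′ end is commonly recorded because oligo-dT can also prime on such a stretch inside a transcript.

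The results turn on the bases at the ends of these isoforms, so a few ends are shown here, from the GENCODE M21 transcript sequences on GRCm38. Each is 5′ to 3′ on the transcript's strand. In the first set, 10 bases before the isoform's start are in lower case and its first 20 bases in capitals. The first 4 are starts inside a T run, and the last 3 are starts without one.
Rap2b in CD4SP, chr3:61366483-61366512, plus strand, 3′ UTR: taagtatagcTTTTTTTTTTTTTTTTTTTT
Ado in CD4SP, chr10:67547505-67547534, minus strand, 3′ UTR: tcttgttttcTTTTTTTTTTTTTTTTTTTT
Akap13 in CD4SP, chr7:75612506-75612535, plus strand, retained-intron model Akap13-211: gtgataggtgTTTTGTTTTTTTTTTTTTTT
Dleu2 in CD4SP, chr14:61630415-61630444, minus strand, TEC model Dleu2-215: ggaaatgttcTTTTTTTTTTTTTTTTTTTT
Purb in CD4SP, chr11:6470170-6470199, minus strand, 3′ UTR: gagtacacgaTGCTGCACTCACAGTTTAAT
Irf2bp1 in CD8SP, chr7:19004547-19004576, plus strand, coding sequence: gaatttcgagGGCGCGGACCGCATCGAGCT
S1pr4 in CD8SP, chr10:81499601-81499630, minus strand, coding sequence: cagtacctggTCCACGCTGGTGACCCCAGA

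In the second set, the last 10 bases of the isoform are in lower case and the 20 genomic bases after its 3′ end, which the deposited percent of A describes, are in capitals. They run from 100% A to 0% A.
Rps27rt in CD4SP, chr9:114982377-114982406, minus strand: ttggatatatAAAAAAAAAAAAAAAAAAAA
Sox4 in CD4SP, chr13:28949075-28949104, minus strand: cacaaaaaaaAGCAAAAAAAAAAAAACAAA
Akap13 in CD4SP, chr7:75702377-75702406, plus strand, retained-intron model Akap13-204: aacggtcaagCCAAAAAAAAAAAAAAATAG
Irf2bp1 in CD8SP, chr7:19006573-19006602, plus strand: gatgggttgtTCTTTTTCCCCCTTCTTGTT

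In both libraries the sorted lineage was clear in the short reads. Cd4 was at 107 FPKM (the level that Cufflinks scales by transcript length and sequencing depth) in CD4SP and 1.69 in CD8SP, Cd8a at 10.9 and 241, and Cd8b1 at 32.9 and 505. The B cell genes Cd79a and Ms4a1 were at 0.0473 FPKM or less in both. H2-Ab1 of antigen-presenting cells (1.32 in CD4SP and 0.254 in CD8SP), Hba-a2 of red cells (1.56 and 0.300) and Lyz2 of myeloid cells (0.669 and 0.254) were low and higher in CD4SP, and their part in the results below was not tested.

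The share of all isoforms that were single-exon full splice matches was 3.08% in CD4SP (95% Clopper-Pearson interval 2.72 to 3.47) and 2.86% in CD8SP (2.53 to 3.22). The difference of 0.22 percentage points was within counting error (Fisher's exact test, two-sided, Benjamini-Hochberg adjusted p = 0.457 over 24 tests, as for every adjusted p of a share below). The members fell on 219 genes in CD4SP and 236 in CD8SP. Of these genes 130 had a member in both libraries, 59.4% of the CD4SP genes and 55.1% of the CD8SP genes. The multi-exon full splice matches, 397 and 527 isoforms whose introns all match an annotated transcript, shared 197 matched transcripts, 57.1% and 42.6%. Counted the same way, members shared 126 matched transcripts, 56.2% and 53.4%.

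Only a small part of the members matched a transcript annotated as protein-coding: 26 (10.2%) in CD4SP and 34 (12.5%) in CD8SP. Retained-intron models were the most frequent target with 85 members in CD4SP and 79 in CD8SP. TEC models followed with 66 and 63, processed pseudogenes with 48 and 55, and long noncoding RNAs with 22 and 29. The remaining 8 and 11 matched mitochondrial ribosomal RNA, unprocessed pseudogenes and small noncoding RNAs. The kinds kept the same order in both libraries.

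**Figure D1:**
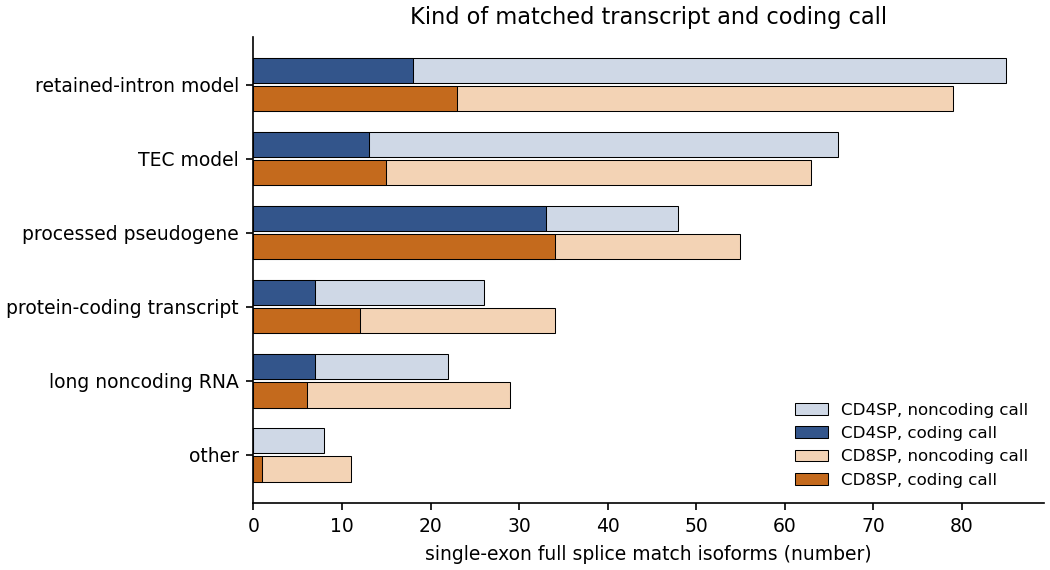
Number of single-exon full splice matches by the kind of matched transcript (rows), with CD4SP in blue and CD8SP in orange; the dark part of each bar is the isoforms called coding in the deposited tables. Retained-intron models hold 85 and 79 members, and processed pseudogenes are the only kind in which most members were called coding.

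Matches to single-exon protein-coding transcripts often held no coding sequence. In CD4SP 16 of the 26 began in the annotated 3′ UTR, after the coding sequence. Another 4 held part of that sequence and 6 the whole of it. In CD8SP the counts were 16, 11 and 7 of 34. An isoform that began in the 3′ UTR could run past the annotated end. Of the 3044 bases of Rbm15b in CD8SP, 67 lay in the transcript. Whole coding sequences came from Junb, an AP-1 transcription factor subunit, in CD4SP; Hnrnpf, a splicing regulator that binds G-rich RNA, and Sfn, a 14-3-3 protein gene, in both; Znhit2 and Trappc5, a subunit of a vesicle tethering complex, in CD8SP; and from mt-Co1, a subunit of cytochrome oxidase, 4930518I15Rik, Gm3550 and Gm4707.

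The Junb isoform of CD4SP was the closest to a full transcript among these factors. It was 1795 bases long against 1809 in the annotation, started at the annotated base, ended 14 bases before the annotated end and carried a called open reading frame of 340 amino acids, with 20% A after its end. Znhit2 in CD8SP was 1285 bases against 1281, with a frame of 399 amino acids and 20% A. The Hnrnpf isoforms were 2528 and 2989 bases in CD4SP and 2987 in CD8SP, all with a frame of 415 amino acids. They began upstream of the matched transcript's start, at -1068 to -1073 bases.

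S1pr4, a sphingosine 1-phosphate receptor of lymphocytes, had 1 isoform, in CD8SP, of 1872 bases. It started 512 bases inside the annotated transcript, held 98.4% of the coding sequence and ended 2 bases before the annotated end, with 15% A after it. Irf2bp1, a partner of the factor IRF2, had 1 isoform, in CD8SP, with 93.2% of the coding sequence and 0% A. Its start and its 3′ end are among the sequences shown above. Neither starts in a T run.

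Sox4, a transcription factor of thymocyte development, was found in CD4SP alone. Its isoform of 2282 bases lay wholly in the 3′ UTR and ended 176 bases before the annotated end, at a stretch with 85% A (sequence above). It was called coding, with a frame of 99 amino acids that is outside the annotated Sox4 coding sequence. Rap2b, a small GTPase gene, had an isoform of 1938 bases in CD4SP and 1937 in CD8SP. They began 4855 and 4863 bases into the transcript and ended within 7 bases of the annotated end, with 10% A. Frat1, a gene of the Wnt pathway, gave 1332 and 1333 bases, and Purb, which encodes a single-strand DNA binding protein, 2587 and 2582. Both genes' isoforms were 3′ UTR pieces that reached the annotated end, with 15% A for Frat1 and 10% and 20% for Purb.

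Ado, which encodes cysteamine dioxygenase, had 4 isoforms in each library, all in the 3′ UTR. Their starts lay 1431 to 1440 bases into the transcript, at the T run shown above. Their ends differed. In CD4SP they ended 7, 448, 623 and 893 bases before the annotated end, and in CD8SP 460, 624 and 893 bases before it and 1 base beyond it. A poly(A) signal, in capitals here, stood before each of the 4 ends in CD4SP, between 15 and 24 bases from the isoform's last base. The lines go from the end nearest to the annotated one to the farthest.
Ado, chr10:67544515-67544544, minus strand: gtacttatgggaAATAAAagcatgtttaaa
Ado, chr10:67544965-67544994, minus strand: gctgctgattacATTAAAaaacaacaacaa
Ado, chr10:67545138-67545167, minus strand: gttctgatgaatAATAAAtgcaataactag
Ado, chr10:67545408-67545437, minus strand: tgtcatttcactAATAAActgagtaaactt
The percent of A after these ends was 55, 30, 15 and 40 in CD4SP, and from 15 to 70 in CD8SP. The second end in CD4SP lay within a run of A that began before the isoform's last base, so its 30% counts only part of that run. The ends of both libraries lay within 12 bases of each other at each of the 4 places.

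Of the lists of genes known to be intronless, few members appeared. Replication-dependent histone genes gave none in either library. Of 28 transcription factors, 2 (Junb and Sox4) appeared in CD4SP and 1 (Irf2bp1) in CD8SP. Of 25 lymphocyte receptors and channels, 0 appeared in CD4SP and 1 (S1pr4) in CD8SP. Of 28 signalling, stress and housekeeping genes, 1 (Rap2b) appeared in each library. A gene missing here may still have isoforms in other categories, which were not analysed here.

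Among the retained-intron matches, Satb1, a chromatin organiser of thymocytes, had 1 isoform of 3805 bases in CD4SP and 1 of 3809 in CD8SP, over an annotated model of 3840 bases. Both ended 3 bases before the model's end, with 80% A. Dgka, a diacylglycerol kinase, gave 2151 and 2160 bases with 85% A in both. Chd8, a chromatin remodeller, gave 1961 bases with 85% A and 1962 bases with 95% A. For each of these genes the lengths in the 2 libraries lay within 10 bases of each other.

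Some genes had several members at different models. Akap13, a kinase anchor protein gene, had 3 in CD4SP, at 3 models between 776 and 4006 bases with 65% to 90% A, and 1 in CD8SP, of 4001 bases with 70% A. The kinase Wnk1 had 1 in each library, of 2311 and 2316 bases, called coding, with 70% and 75% A. Of the genes with retained-intron matches, 29 of 70 in CD4SP and 30 of 69 in CD8SP also had a multi-exon isoform in the same library. Among genes with protein-coding matches, it was 0 of 21 and 1 of 30.

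TEC models gave the longest isoform, Gm37135 of 7362 bases in CD4SP, over a model of 534 bases, with 90% A. C230085N15Rik had 3 members in each library that shared a start within 10 bases and ended at 3 places. Their lengths were 4590, 3396 and 1885 bases in CD4SP and 4579, 3396 and 1885 in CD8SP. After the shortest stood 85% A in both libraries, after the middle one 50%, and after the longest 60% and 40%. Dleu2, a noncoding host gene of miRNAs, had 2 members in CD4SP and 3 in CD8SP, which all started 1458 to 1461 bases into Dleu2-215, at the T run shown above. Their ends lay 55 and 817 bases before the model's end in CD4SP and 16, 816 and 1350 bases before it in CD8SP.

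Processed pseudogenes were matched mainly by isoforms that ran far past them. The median isoform was 2767.5 bases in CD4SP and 1946 in CD8SP, and the median share of its length inside the pseudogene was 18.04% and 32.1%. Gm5453 had the same isoform length of 6440 bases in both libraries over a pseudogene of 447 bases. At the other end, Rpl31-ps8 in CD8SP gave the shortest member, 148 bases, with 100% A after its end, and Rps6-ps4 gave 1769 bases in CD4SP and 160 in CD8SP with 90% A in both. Rps27rt, a ribosomal protein copy annotated as protein-coding, gave 226 and 224 bases, with 100% and 95% A. Because such copies are near-identical to the parent mRNA, the gene of origin of these short isoforms is uncertain.

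Long noncoding matches included 2 of Malat1, an abundant nuclear RNA, in CD8SP. They began 1 base into the transcript and were 867 and 720 bases long against 6983 in the annotation, with 60% A after both ends. Kcnq1ot1, an antisense RNA of an imprinted region, gave 3920 bases out of 93092 in CD8SP, with 90% A. 2900097C17Rik gave 3466 bases in both libraries, ending 4 bases before the annotated end, with 25% A. Of the 11 long noncoding nuclear RNAs on the list, searched by the listed symbol, 0 had a member in CD4SP and 2 (Malat1 and Kcnq1ot1) in CD8SP. That search missed Norad, which is on the list and is the RefSeq symbol of 2900097C17Rik, with a member in both libraries.

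The mitochondrial genome gave 8 members in CD4SP from 5 genes and 11 in CD8SP from 6. mt-Rnr2, the large ribosomal RNA, had 4 and 5, between 198 and 2638 bases. mt-Cytb, of the cytochrome b subunit, was 1141 bases in both libraries, and mt-Co1 was 1614 bases in both, with a second isoform of 454 bases in CD8SP. None was called coding in either library, although mt-Co1 held the whole coding sequence. The unprocessed pseudogenes of chromosome 1 Gm10925, Gm28437 and Gm28661, had members in both libraries, and none of these was covered by a short-read transcript with FPKM above 0.

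The members had a median length of 2727 bases in CD4SP (198 to 7362) and 2287 in CD8SP (148 to 6440). All isoforms together had medians of 2882 and 2597 bases, so CD8SP isoforms were shorter in the whole library as well. Isoform length and the length of the matched transcript were loosely related. In CD4SP 152 members and in CD8SP 135 were longer than the transcript they matched. In CD4SP 97 and in CD8SP 91 had less than 50% of their length inside it, and 23 and 21 less than 10%.

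Only 26 members in CD4SP and 19 in CD8SP had both ends within 50 bases of the annotated ends. The 3′ end was at the annotated end (within 50 bases) in 113 and 111 members, inside it in 46 and 58 and beyond it in 96 and 102. The 5′ end was at the annotated start in 50 and 52, inside in 89 and 117 and beyond in 116 and 102. For 6 members in CD4SP and 7 in CD8SP the overlap was under 100 bases. St13, a heat shock protein cofactor gene, had an isoform of 3757 bases in CD4SP and 3756 in CD8SP, of which 22 bases lay in the matched model.

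**Figure D2:**
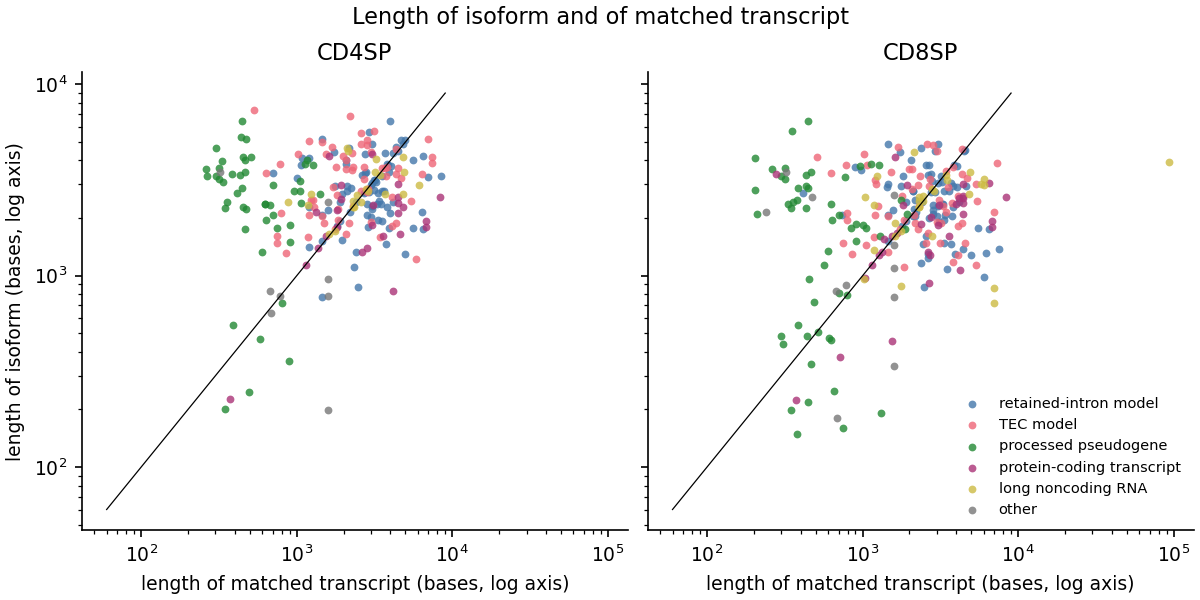
Length of each isoform (vertical, bases, log axis) against the length of its matched transcript (horizontal, bases, log axis) in CD4SP (left) and CD8SP (right), coloured by the kind of transcript; the line marks equal lengths. Processed pseudogenes (median transcript length 471.5 and 468 bases) sit mostly above the line, and protein-coding matches mostly below it.

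The share of members at least 80% as long as the matched transcript was 72.2% in CD4SP (66.2 to 77.6) and 61.6% in CD8SP (55.5 to 67.4), a difference of 10.5 points (adjusted exact p = 0.0198). It was 79.3% and 72.1% among multi-exon matches. Members were below multi-exon matches by 10.5 points in CD8SP (adjusted exact p = 0.00496), and in CD4SP the 7.19 points missed the threshold (adjusted exact p = 0.0529). At a minimum of 95% both differences turned, to 0.168 points in CD4SP and 2.76 in CD8SP above multi-exon matches, neither past the threshold. Length alone does not show coverage here, because members extend past the transcript. Counted by overlapping bases, 59.2% and 50.6% of members covered 80% of it, and the lineage difference missed the threshold (8.66 points, adjusted exact p = 0.0759). On that count members differed from multi-exon matches by -17.9 points in CD4SP (adjusted exact p = 3.59e-06) and -18.9 in CD8SP (adjusted exact p = 6.17e-07). Multi-exon matches must share every intron of the transcript, while members need only overlap it. The rule for a match thus bears on both counts, and the tests against multi-exon matches cannot separate it from the isoforms.

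Ends were shared closely between the libraries. Of 126 matched transcripts with a member in both, 115 (91.3%) had a pair of 3′ ends within 10 bases and 106 (84.1%) a pair of 5′ ends, 96 (76.2%) had both in the same pair and 25 had identical ends. Among the 197 transcripts with multi-exon matches in both, the shares were 82.2%, 82.7% and 68.5%, with 22 identical.

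Stretches of A followed most members. The percent of A in the 20 genomic bases after the 3′ end was at least 60 for 199 of 255 members in CD4SP (78.04%, 72.5 to 83.0) and 208 of 271 in CD8SP (76.8%, 71.3 to 81.6). The libraries differed by 1.29 points (adjusted exact p = 0.755). Multi-exon matches had 9.32% and 11.2%, which is 68.7 points lower in CD4SP (adjusted exact p = 3.82e-74) and 65.6 points lower in CD8SP (adjusted exact p = 3.83e-77). Other single-exon isoforms on the sense strand of genes had 75.9% and 72.4%, and members differed from them by 2.09 (adjusted exact p = 0.536) and 4.34 points (adjusted exact p = 0.173).

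The kind of transcript separated the members. A percent of A of at least 60 was found for 26.9% of the protein-coding matches in CD4SP (7 of 26) and 32.4% in CD8SP (11 of 34), against 83.8% (192 of 229) and 83.1% (197 of 237) of the other members. These comparisons were added after the values had been seen, with adjusted exact p = 9.77e-09 in CD4SP and 8.11e-09 in CD8SP. TEC models stood at 90.9% and 90.5%, processed pseudogenes at 87.5% and 90.9%, retained-intron models at 83.5% and 82.3% and long noncoding RNAs at 77.3% and 72.4%. Of the mitochondrial members 1 of 8 and 2 of 11 were at 60% A or more.

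The share was lowest for ends at the annotated place. Of members whose 3′ end was within 50 bases of the annotated end, 73.5% in CD4SP and 71.2% in CD8SP had at least 60% A, against 80.4% and 75.9% of those ending inside the transcript and 82.3% and 83.3% of those ending beyond it. These differences were not tested. The order was another within the most frequent kinds, also untested. For retained-intron models the shares were 86.7% and 90.3% at the annotated end, 93.8% and 86.4% inside and 70.8% and 69.2% beyond it. For TEC models they were 96.3% and 96.2% at the annotated end, 85.7% and 80% inside and 88.9% and 94.1% beyond it. For processed pseudogenes they were 92.3% and 100% at the annotated end, and 85.7% and 87.5% beyond it. For protein-coding matches they were 7.14% and 15% at the annotated end, 33.3% and 28.6% inside and 66.7% and 85.7% beyond it. For long noncoding RNAs they were 50% and 53.3% at the annotated end, and 100% and 87.5% beyond it. Whether the A stretch is where the cDNA was primed was not tested.

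**Figure D3:**
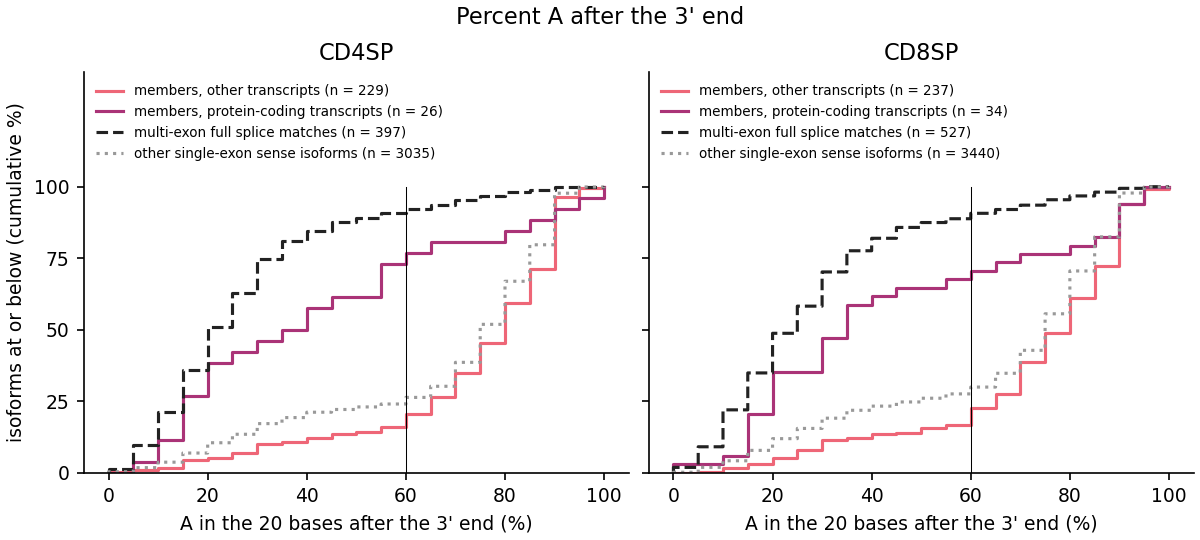
Cumulative percent of isoforms (vertical) at or below a given percent of A in the 20 bases after the 3′ end (horizontal) in CD4SP (left) and CD8SP (right); the vertical line marks 60% A. At the line, protein-coding matches (26.9% and 32.4% with at least 60% A) lie between multi-exon matches (9.32% and 11.2%) and the other members (83.8% and 83.1%).

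Poly(A) signals showed the opposite pattern. AATAAA or ATTAAA, on the transcript's strand only, was looked for in a member's last 50 bases where these lie within the matched transcript. It was there for 29 of 132 members in CD4SP (22.0%, 15.2 to 30.004) and 42 of 136 in CD8SP (30.9%, 23.2 to 39.4), a difference of 8.91 points (adjusted exact p = 0.170). Multi-exon matches had 75.6% and 73.9%, which is 53.6 points (adjusted exact p = 2.83e-22) and 43.0 points (adjusted exact p = 8.62e-18) more. Over all GENCODE M21 transcripts, 3.50% of 50-base windows and 33.8% of the last 50 bases held such a motif. A match is a description of the letters, not evidence of use.

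Among protein-coding matches 13 of 19 in CD4SP and 18 of 24 in CD8SP held a signal, against 14.2% and 21.4% of the other members (adjusted exact p = 5.06e-06 and 2.29e-06, comparisons added after the values had been seen). Retained-intron matches held one in 12.7% and 13.0%. Processed pseudogenes were almost absent from the other members here, since only 2 of 48 in CD4SP and 1 of 55 in CD8SP could be searched. Split by the A stretch, 22 of 33 members under 60% A held a signal in CD4SP and 29 of 40 in CD8SP. Of those with at least 60% A, 7 of 99 and 13 of 96 did.

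The starts of members were often rich in T. Starts and poly(A) signals were not read for other single-exon isoforms on the sense strand of genes, so neither pattern can be called particular to members. Of the 113 members in CD4SP and 142 in CD8SP whose first 20 bases lie inside the matched transcript, 78 (69.0%, 59.6 to 77.4) and 88 (62.0%, 53.5 to 70.0) had at least 60% T there. The median was 90% T and 85% T. In the 20 bases just before the start the median was 30% T in both libraries, and 17 of 97 and 23 of 126 members reached 60%. Over all GENCODE M21 transcripts 1.15% of 20-base windows have at least 60% T. The pattern was noticed in these data and then counted in them.

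Multi-exon matches that start inside their transcript had such a start in 33.7% in CD4SP and 25.1% in CD8SP, 35.3 points (adjusted exact p = 6.53e-09) and 36.9 points (adjusted exact p = 2.43e-13) below the members. Between the libraries the members differed by 7.05 points (adjusted exact p = 0.348). Retained-intron matches had T-rich starts in 40 of 48 and 39 of 47, and TEC matches in 14 of 19 and 23 of 28. Processed pseudogenes had them in 1 of 9 and 2 of 19. Among protein-coding matches that began in the 3′ UTR, 13 of 16 in CD4SP and 12 of 16 in CD8SP had a T-rich start. Rap2b, Ado, Frat1, Klhl9 and Tspyl1 were among them. Those without such a start were Purb and Fem1a in both libraries, Sox4 in CD4SP, and Arl4c and Rbm15b in CD8SP. Both a T-rich start and at least 60% A after the end were found for 56 members (49.6%) in CD4SP and 64 (45.1%) in CD8SP, against 5.18% and 4.64% of multi-exon matches. The cause was not tested.

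**Figure D4:**
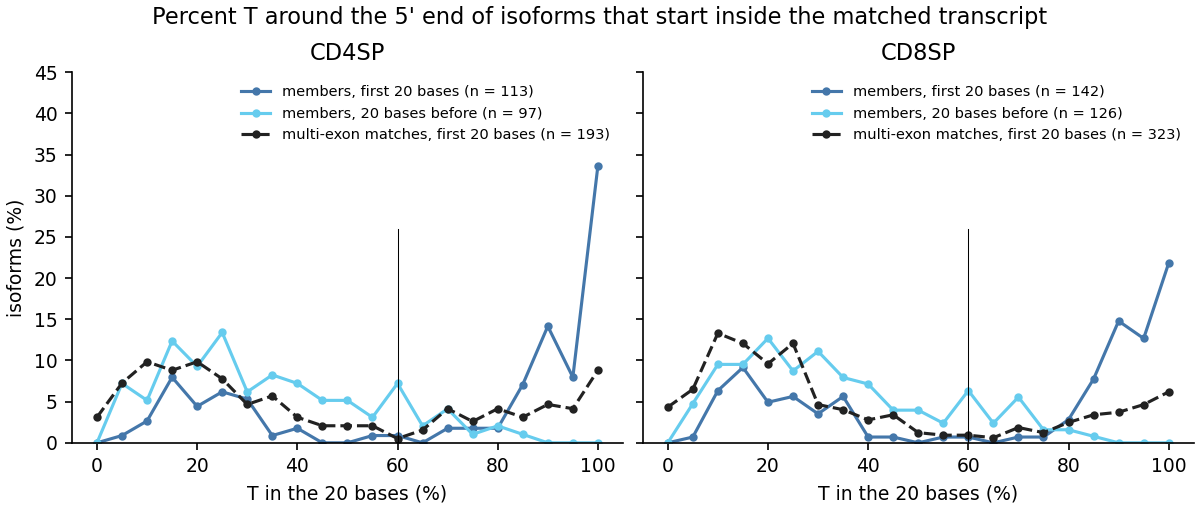
Percent of isoforms (vertical) by the percent of T (horizontal) in the first 20 bases and in the 20 bases before the start, for isoforms that start inside the matched transcript, in CD4SP (left) and CD8SP (right); the vertical line marks 60% T. Members peak at 100% T in their first 20 bases and not in the 20 bases before.

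A coding call was given to 78 members in CD4SP (30.6%, 24.99 to 36.6) and 91 in CD8SP (33.6%, 28.0 to 39.5), which differed by 2.99 points (adjusted exact p = 0.536). Multi-exon matches were called coding in 82.6% and 86.3%, 52.0 points (adjusted exact p = 1.07e-40) and 52.8 points (adjusted exact p = 1.74e-50) above the members. Other single-exon sense isoforms were at 23.5% and 21.02%, so members were higher by 7.10 points in CD4SP (adjusted exact p = 0.0216) and by 12.6 points in CD8SP (adjusted exact p = 7.68e-06). With 1 isoform per gene the CD4SP difference was 5.09 points and missed the threshold (adjusted exact p = 0.159).

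Of the kinds of matched transcript, pseudogenes were most often called coding. Processed pseudogenes made up 33 of the 78 coding members in CD4SP and 34 of the 91 in CD8SP, and 68.8% and 61.8% of pseudogene matches were called coding, against 26.9% and 35.3% of matches to protein-coding transcripts. The called frame lay within the matched pseudogene for 19 of 33 and 22 of 34. The median called frame over all coding members was 117 amino acids in CD4SP and 119 in CD8SP, against 321.5 and 341 among multi-exon matches. Purb (123 amino acids) and Rbm15b (123) were called coding with no base in the annotated coding sequence. Of the members that held a whole annotated coding sequence, 4 of 6 and 6 of 7 were called coding, and mt-Co1 was among the others in both libraries.

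The short reads cover the same places. Of the nuclear members, 202 of 247 in CD4SP and 208 of 260 in CD8SP had at least 80% of their bases within transcripts assembled at FPKM above 0 in the same lineage, and the median was 100% in both. The count with no covered base was 4 and 17. Of the 17 in CD8SP, 9 were processed pseudogenes. The assembly lists many unspliced fragments and no source used here gives the strand setting, so cover does not show that the isoform itself is present.

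Gene levels of the members' genes could be compared for 137 of 325 genes, since the short-read files name RefSeq transcripts and most TEC models and pseudogenes have none. Of these, 131 reached 1 FPKM in either lineage. A gene was called at a ratio of at least 2-fold on the log2(FPKM + 0.1) scale with non-overlapping summed Cufflinks intervals, with no test because each lineage has 1 file. In all 13 (9.92%) were called, 8 with more signal in CD4SP and 5 in CD8SP; with ratios centred on their median these were 12 and 4. Of the 8, 3 are listed at 0 in CD8SP, and without genes listed at 0 in a lineage 10 of 128 were called (7.81%, against 13.3% of all genes), 5 in each direction. Over all genes measured 14.7% were called, 9.98% higher in CD8SP and 4.76% in CD4SP. The log2 ratio, CD8SP over CD4SP, had a median of 0.12 over the members' genes and 0.22 over all genes. These are levels of whole genes, not of the single-exon isoforms, and in bulk samples fewer cells of a type and less RNA per cell cannot be told apart.

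Higher in CD8SP were S1pr4 (4.90 FPKM in CD4SP and 15.4 in CD8SP, log2 ratio 1.63), the cyclin gene Ccnd2 (23.2 and 60.8, 1.39), the phosphatase gene Ptpn22 (26.2 and 57.3, 1.13), the primase subunit gene Prim2 (4.84 and 12.2, 1.32) and Dleu2 (3.13 and 12.8, 2.0). The first 4 had their single-exon isoform in CD8SP alone, and Dleu2 in both. Higher in CD4SP were Mtss1, an actin regulator (11.03 and 2.68, -2.0), the deacetylase gene Sirt2 (7.58 and 1.504, -2.26), Apoe of lipid transport (2.03 and 0.931, -1.05), Raph1 (2.13 and 0.271, -2.59) and Gm15708 (1.27 and 0.0899, -2.85). The CD8SP values of Ccnd2, Dleu2 and S1pr4 and the CD4SP value of Gm15708 lie outside their own summed intervals.

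Sox4 (22.8 FPKM in CD4SP), Gm12191 (4.21) and Sfn (1.11) are listed at 0 in CD8SP. The bases of their members were covered to 100% by transcripts assembled at FPKM above 0 in CD8SP, so the listed 0 cannot be read as absence, and no fold is given. The isoforms of Apoe and Sirt2 were found in CD8SP alone although the gene was higher in CD4SP. Of 42 measured genes with a member in CD8SP alone, 6 (14.3%) were called, 2 of them toward CD4SP. Of 35 with a member in CD4SP alone, 2 (5.71%) were called, both toward CD4SP, and Sox4 with its listed 0 is among them. Over all genes 14.7% were called, 9.98% toward CD8SP and 4.76% toward CD4SP, so these few calls are not set apart from all genes.

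**Figure D5:**
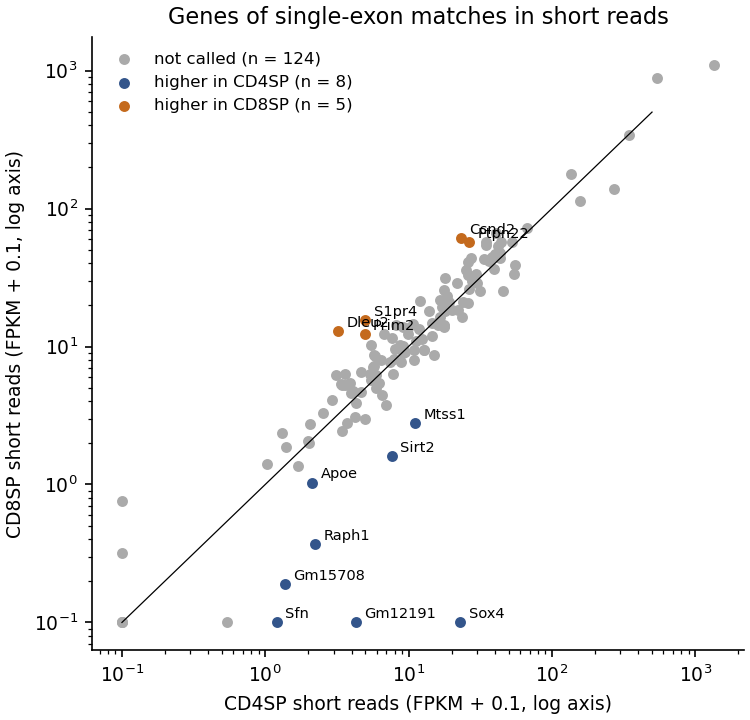
Short-read level of 137 genes with a single-exon full splice match, CD8SP (vertical) against CD4SP (horizontal), both as FPKM + 0.1 on log axes, 1 point per gene; the line marks equal levels. Most points lie near the line, 13 named genes were called, and 3 of them (Sox4, Gm12191 and Sfn) are listed at 0 in CD8SP and sit on the lower edge.

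Of the 30 genes with the highest mean FPKM among those with members in both libraries, 0 were called. Over all genes that reached 5 FPKM in either lineage, a wider set that reaches lower levels than these 30, 701 of 6348 were called. Satb1 was at 273 FPKM in CD4SP and 138 in CD8SP (log2 ratio -0.98, not called), Dgka at 156 and 113, Snrnp70 at 66.8 and 72.3 and Akap13 at 44.4 and 57.1. Junb, whose isoform was found in CD4SP alone, was at 54.3 and 33.7 (-0.69, not called). Malat1, whose isoforms were found in CD8SP alone, was at 1356 and 1104.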

How the data were processed

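Isoform tables of the PacBio libraries and Cufflinks transcript files of the Illumina reads were used as deposited. Per the file headers, the authors' tables give each isoform's length in bases, exon number, structural category, coding call, distances to the matched transcript's ends and the percent of A after the 3′ end. The short-read files hold a Cufflinks score per transcript and the FPKM with its interval, per the file headers. The submitters' processing notes name GRCm38, GSNAP, RSEM 1.3.1, TopHat2 2.0.14 and Cufflinks 2.1.1. The annotation release and the role of each tool with the long reads are not stated in the sources used here. Read depth per isoform was not used.

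Members were placed on GENCODE M21, in which all 526 matched transcripts had the deposited length, symbol and strand. For 123 of 123 members whose window lies in the transcript, the recomputed percent of A equalled the deposited one. No GRCm38 genome was at hand, so bases and poly(A) signals were read from transcript sequences only. Shares were compared with Fisher's exact test in Python 3.11.15 with scipy 1.17.1, with Benjamini-Hochberg adjustment over 24 tests, a threshold of 0.05 and Clopper-Pearson intervals. Of these tests, 7 were added after the values had been seen. The test code was tested on simulated data. FPKM was summed per gene over RefSeq transcripts, of which 29627 of 30589 matched a symbol, plus assembled transcripts sharing an intron with 1 gene. Overlapping and antisense genes may share reads.

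The members and the gene lists were chosen with earlier results of these data known. Genes were named by rule: the 30 shared genes with the highest mean FPKM, genes with 2 or more members in a library, the 5 longest and 5 shortest members, the 10 with the highest percent of A per library, and all members of the lists; other genes were chosen after their values were seen. The rule names 152 genes; the text prints a part of them as examples of each kind of match, and the others are not reported here singly. The 4 lanes of each lineage are 1 file and carry no replicate information.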

Additional observations from a re-analysis of the deposited data

How the results depend on the processing

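The share comparisons were repeated with 1 isoform per gene, other minimums and without short or mitochondrial isoforms; 79 of 85 repeats kept direction and side of the threshold. Members against multi-exon matches for the 80% length share reversed at a 95% minimum, to 0.168 points in CD4SP and 2.76 in CD8SP, neither past the threshold. By overlapping bases, an alternative added after seeing the data, the CD4SP difference became -17.9 points and passed it. The rule for a match bears on this comparison with multi-exon matches, as given above. The lineage difference in that share was 5.60 points at a 50% minimum and 8.66 by overlapping bases, neither past the threshold. With 1 isoform per gene, the coding share of members against other single-exon sense isoforms in CD4SP was 5.09 points. At a minimum of 5 FPKM, 8 of 109 member genes were called, 3 of them higher in CD4SP, against 701 of 6348 of all genes. Without genes listed at 0 in a lineage, added after seeing the data, it was 10 of 128, 5 of them higher in CD4SP, against 1256 of 9468. Centring on the median ratio, a shift of 0.21, gave 16 of 131, 4 higher in CD8SP and 12 in CD4SP, against 1301 of 9643. No paired analysis of samples was possible because each lineage has 1 long-read library and 1 combined short-read file. The tests between libraries did not pair isoforms by matched transcript. With no replicates, no library could be left out. Depth per isoform was not analysed here, so a missing isoform may be an unsampled one.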

Other observations

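Genes with a member in 1 library only were 89 of 219 in CD4SP and 106 of 236 in CD8SP. Counted as matched transcripts, it was 98 of 224 and 110 of 236. For multi-exon matches it was 148 of 345 and 265 of 462 matched transcripts. Gm3550, Gm4707 and Gm8995, predicted genes, had members in CD8SP alone. The Gm8995 isoform, of 3155 bases, carried the longest called frame seen among the long noncoding matches, 838 amino acids, with 70% A after its end. Gm15500 matched a pseudogene transcript of 894 bases in CD4SP (359 bases, 95% A) and a processed transcript of 1019 bases in CD8SP (964 bases, 95% A), with called frames of 98 and 297 amino acids. Snord17, a small nucleolar RNA of 238 bases, was spanned by an isoform of 2163 bases in CD8SP with 75% A. Thy1, a T cell surface protein gene, had 1 isoform, in CD4SP, of 2298 bases with 0% A after it, of which 98 bases lay in the matched retained-intron model, and Ptprc had 1 in CD8SP of 3333 bases with 80% A.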
